A study of Drosophila melanogaster with 6 samples.

Results

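Fatty acyl-CoA reductases are NADPH-dependent enzymes that turn the acyl group of a fatty acyl-CoA into a fatty alcohol. The alcohols go into waxes, ether lipids and, in insects, the hydrocarbon and lipid layers that waterproof the cuticle and the tracheal tubes. The family is large in Drosophila, many of its genes carry no name beyond their annotation number, and waterproof (wat) is known to be needed in the late embryo for the tracheal tubes to fill with gas. The genes described here were 7 listed names of this family, and every probe set whose platform annotation gave exactly 1 of these names was taken. The RefSeq table gives CG1443 as the locus tag of wat, so the names stood for 6 genes: CG17560, CG17562, CG14893, wat, CG5065 and CG4020. Each had 1 probe set, and together they were 6 of 18769 probe sets and 6 of 11982 named genes. The family was chosen by the measured fall of CG17560 on these arrays, so the values of CG17560 are given as a description with no test.

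RNA came from 6 pools of dechorionated Drosophila melanogaster embryos, laid over 2 h at 25 °C and aged for another 2 h, and was hybridized to 1-colour Affymetrix arrays. In the brakeless group the mothers were FRT2R G13 bks278/FRT2R G13 ovoD1, with germline clones homozygous for the strong allele bks278, and the fathers were FRT2R G13 bks278 over the CyO balancer. In the control group the mothers were FRT2R G13/FRT2R G13 ovoD1, with germline clones of the unmutagenized chromosome, and the fathers carried FRT2R G13. All mothers therefore carried ovoD1, which blocks eggs from germ cells that did not recombine, and the clones remove the maternal product only. Within each brakeless pool some embryos also lacked the zygotic gene (sbb, which encodes the nuclear co-regulator Brakeless) and others had a copy from CyO. The question behind the design is what maternal Brakeless does to transcript levels, and each group had 3 arrays that the labels call biological replicates.

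The values are log2 levels per probe set, made comparable between arrays by the authors with RMA. RMA compresses differences near the lower end of the scale. The groups are compared here within a probe set or within a fixed list of genes. Words such as low and bright only place a probe set roughly on the scale of all probe sets. The median over all probe sets was 3.67. Control replicate 3 stood apart, with a mean correlation of 0.964 with the other arrays, against 0.979 to 0.986 for the other 5. The brightest sbb probe set read 5.33, 4.45 and 4.61 in brakeless embryos, below 6.01, 6.71 and 6.06 in control embryos, and its difference of -1.46 did not pass the test (limma adjusted p = 0.320). The other 2 sbb probe sets had differences of 0.08 and 0.11. The early embryo genes eve, ftz, odd, sna, twi and zen averaged 6.56 to 7.49 per brakeless array and 6.55 to 7.29 per control array. Genes of the eggshell and follicle cells averaged 3.83 to 4.00 per brakeless array and 3.77 to 4.08 per control array (8 genes measured).

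CG17560 (3R, 16617950 to 16619878, Release 6 plus ISO1 MT) was at the low end of the scale in brakeless embryos and well above it in control embryos. Its probe set, 1636885_at, read 2.77, 3.41 and 2.87 in the brakeless arrays. In the control arrays it read 5.48, 6.44 and 6.09. The groups did not overlap, and the brakeless replicates 1 and 3 lay below the 25th percentile of their own arrays, which was 2.96 and 3.02. The brakeless mean was 3.02 ± 0.35 and the control mean 6.01 ± 0.48 (SD, n = 3 each), which gave a log2 difference of -2.99 (SE 0.29, 95% interval -3.70 to -2.27), or 7.93-fold less in brakeless embryos. By size of fall it stood at place 11 of the 18769 probe sets. It was chosen for this fall, so its place and its interval are descriptions, and the interval does not allow for that choice. Over all probe sets 0.107% were called lower in brakeless embryos, and in 5.40% all 3 brakeless arrays lay below all 3 control arrays. The brakeless level may lie at the background of the array, so the fold describes the deposited values and need not be that of the transcript. In pooled embryos, fewer cells or fewer embryos with the transcript and less RNA per cell cannot be told apart. The difference was -2.95 without control replicate 3, and it lay between -3.25 and -2.77 when any 1 of the 6 arrays was left out.

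**Figure D1:**
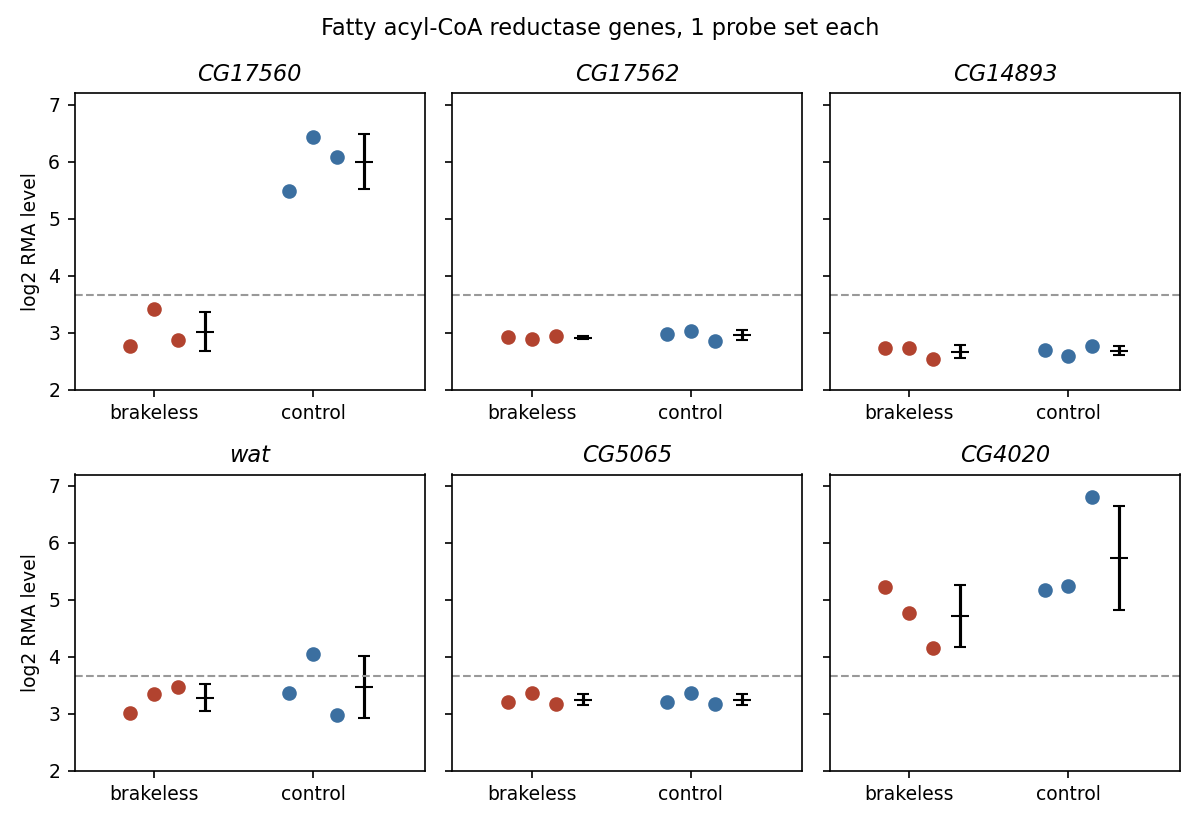
Log2 RMA level of the 6 reductase genes, 1 panel and 1 probe set per gene, with a point per array, brakeless on the left and control on the right. The bar beside each group is the mean ± SD (n = 3), and the dashed line is the median of all probe sets (3.67). CG17560 is the gene whose 3 brakeless arrays all lie below its 3 control arrays.

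CG17560 is the middle gene of a tandem trio of reductase genes on 3R. CG17562 (16615309 to 16617154) ends 795 bp before the start of CG17560, and CG14893 (16620778 to 16622702) starts 2828 bp after that start. The annotated span of CG17560 also holds the microRNA gene mir-2494, whose level was not analysed here. CG17562 read 2.92, 2.88 and 2.94 in brakeless embryos and 2.98, 3.04 and 2.86 in control embryos. The arrays of the groups overlapped, and the difference was -0.05 (interval -0.29 to 0.19, limma adjusted p = 0.998). CG14893 read 2.73, 2.74 and 2.53 in brakeless embryos and 2.69, 2.60 and 2.76 in control embryos. Here too the groups overlapped, with a difference of -0.02 (interval -0.28 to 0.25, limma adjusted p = 0.998). Both probe sets lay below the median of all probe sets on every array. They were not shown to be above background in either group, so a fall from such a level could not have been seen on these arrays.

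None of the genes measured on either side of the trio passed the test. CG10340, the nearest measured gene before CG17562, averaged 9.80 ± 0.20 over the brakeless and 9.80 ± 0.11 over the control arrays (SD, n = 3 each), a difference of -0.0051 (interval -0.35 to 0.34). Ccdc114, the next gene after CG14893, read 3.53 ± 0.13 in brakeless and 3.56 ± 0.28 in control embryos. Fas1, which encodes the cell adhesion protein Fasciclin 1, read 8.90, 8.53 and 8.90 in brakeless and 8.93, 8.70 and 6.19 in control embryos. Its positive difference of 0.83 (interval -0.94 to 2.61) came with 1 low array, control replicate 3. Within 60 kb of the start of CG17560 there were 15 other measured genes, of which 0 were called and 0 differed by 1 or more on the log2 scale. Over all probe sets only 0.139% were called, and CG4020, with a difference of -1.02, was already at place 209 of 18769 by size of fall. These counts therefore do not set the 15 genes apart from the array as a whole. Their differences ran from -0.29 to 0.83.

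**Figure D2:**
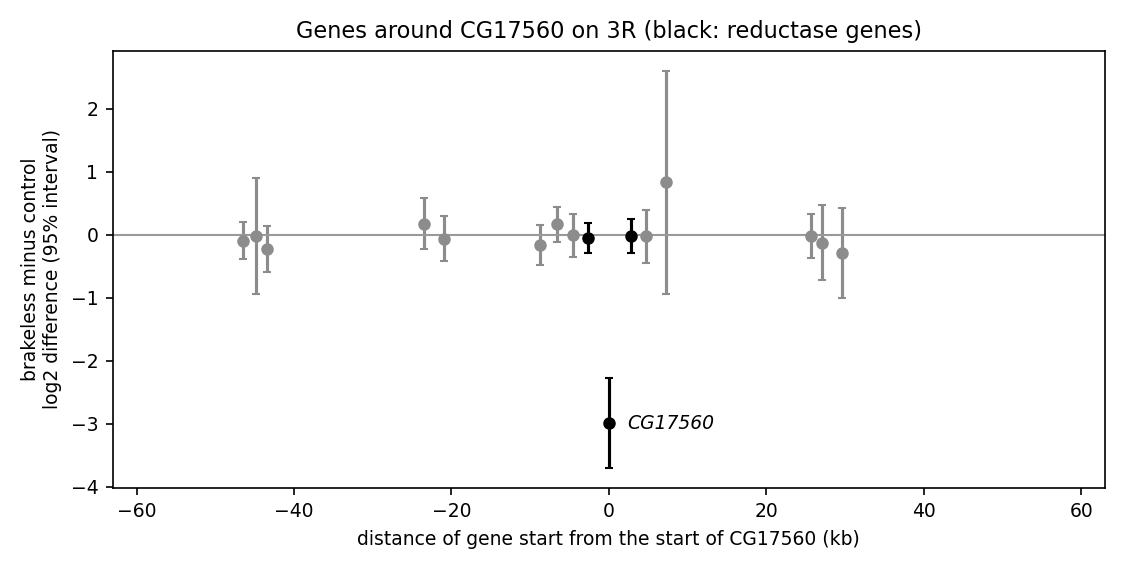
Brakeless minus control log2 difference, with the 95% interval of the limma fit, for the 16 measured genes within 60 kb of CG17560 on 3R, by distance of the gene start from that of CG17560. Reductase genes are black. CG17560 lies at -2.99, and the other 15 genes lie between -0.29 and 0.83, with the widest interval at Fas1.

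The gene wat (3R, 28992977 to 29020406) was low in both groups at this age and did not differ beyond the spread of the arrays. Its probe set, 1629346_at, read 3.02, 3.35 and 3.47 in brakeless embryos. In control embryos it read 3.36, 4.05 and 2.98. The groups overlapped, since the lowest and the highest array were both control arrays, and the difference was -0.18 (interval -0.89 to 0.53, limma adjusted p = 0.998). It was -0.43 without control replicate 3 and turned to 0.11 without control replicate 2, the highest array. On 5 measured genes of the trachea the list mean was 4.15, 4.63 and 5.02 in brakeless replicates 1 to 3, against 4.74, 5.08 and 4.21 in control replicates 1 to 3. Within each group this is the same order of arrays as that of wat, with brakeless replicate 3 and control replicate 2 the highest. That order was not particular to the trachea. Muscle genes of older embryos had it too, with list means of 3.40, 4.40 and 5.23 in brakeless and 5.07, 6.005 and 4.15 in control embryos. So did the list mean of fatty acid elongase genes. Among the control arrays the early embryo genes were instead highest in replicate 1 (7.29). The tracheal list mean followed 2 of the 5 genes, the chitin deacetylase genes serp and verm, which shape the tracheal tubes. The gene serp read 4.37, 5.85 and 6.49 in brakeless and 6.27, 7.11 and 3.62 in control embryos. The other 3 genes did not have that order of arrays on the probe set with the highest mean. The FGF receptor gene btl was highest in brakeless replicate 1 (4.61), osy lowest in control replicate 2 (3.63) and pio highest in control replicate 3 (3.86), among the arrays of the group. The dimmer osy probe set was instead highest in brakeless replicate 3 (3.45) and control replicate 2 (3.73), as for wat. The dimmer pio probe sets did not have both of these arrays highest. The part of these levels in the values of wat was not tested.

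CG4020 (X, 5905746 to 5908001) was lower on average in brakeless embryos, but the arrays overlapped. Probe set 1637829_at read 5.23, 4.77 and 4.15 in brakeless embryos and 5.18, 5.24 and 6.80 in control embryos. Brakeless replicate 1 lay among the 2 lower control arrays, and control replicate 3 was far above the other 5 arrays. The brakeless mean was 4.72 ± 0.54 and the control mean 5.74 ± 0.92 (SD, n = 3 each), a difference of -1.02 (interval -2.26 to 0.22). This did not pass the test (limma adjusted p = 0.998, unadjusted p = 0.0913). Without control replicate 3, which also stood apart over all probe sets, the difference was -0.49. The nearest measured neighbours of CG4020 on the X, CG16721 and CG12236, had differences of -0.21 and 0.54, neither past the test.

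CG5065 (2R, 16607654 to 16624894) had nearly equal values in both groups. It lies on the arm that was made homozygous in the germline clones. Probe set 1628207_at read 3.20, 3.36 and 3.18 in brakeless embryos and 3.21, 3.36 and 3.18 in control embryos, a difference of -0.00059 (interval -0.27 to 0.27, limma adjusted p = 0.999). Its level was below the median of all probe sets, as were those of 4 of the 6 genes on the mean over arrays. Another reductase gene, CG8303, is the second measured gene before it, and their annotated starts are 12626 bp apart. Apart from the 6 genes themselves, which neighbour each other in the trio, the rule of 2 measured genes on each side gave 16 distinct neighbours. They included 0 called genes and 0 with an unadjusted limma p under 0.05, beside 0.139% and 4.78% of all probe sets. Such counts do not set the neighbours apart from the array as a whole.

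Of the 5 reductases other than CG17560, 0 were called, 0 had an unadjusted limma p under 0.05 and 0 had groups that did not overlap. Over all 18769 probe sets the shares were 0.139%, 4.78% and 10.1%, so these counts do not set the 5 genes apart from the array as a whole. The median difference was -0.05 over the 5 genes and -0.11 over all 6, beside 0.0022 over all probe sets. The 3 genes CG17560, wat and CG4020 passed a filter at the 40th percentile of mean signal and CG17562, CG14893 and CG5065 did not. CG17560 passed through its control level.

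None of the other measured genes of the family, listed by membership, passed the test. These were CG1441, CG4770, CG8303, CG8306, CG12268, CG30427, CG34342, FarO and Sgp (locus tag CG13091), with 13 probe sets in all. CG10096 and CG10097 were not analysed here. Of the 9 genes 0 rose, 0 fell and 0 had an unadjusted limma p under 0.05. Over all probe sets 0.139% were called and 4.78% had such a p. The 95% interval held 0 for each of the 13 probe sets. The median difference over the genes was -0.03. CG8306 lay farthest above the median of all probe sets, at 6.40, 6.13 and 6.04 in brakeless and 6.50, 6.69 and 6.13 in control embryos, a difference of -0.25 (interval -0.70 to 0.19). CG1441 had the greatest difference, -0.72 (interval -1.60 to 0.17), with 3.66, 3.902 and 4.82 in brakeless and 4.35, 5.18 and 5.01 in control embryos. Its groups overlapped through brakeless replicate 3. FarO, named for its role in oenocytes, the cells that make cuticular hydrocarbons in later stages, read 2.88, 2.92 and 3.26 in brakeless and 3.02, 3.10 and 3.18 in control embryos. CG8303 ran from 2.89 to 4.30 in brakeless and from 3.35 to 3.99 in control embryos, with brakeless replicate 3 and control replicate 2 the highest of their groups, as for wat.

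**Figure D3:**
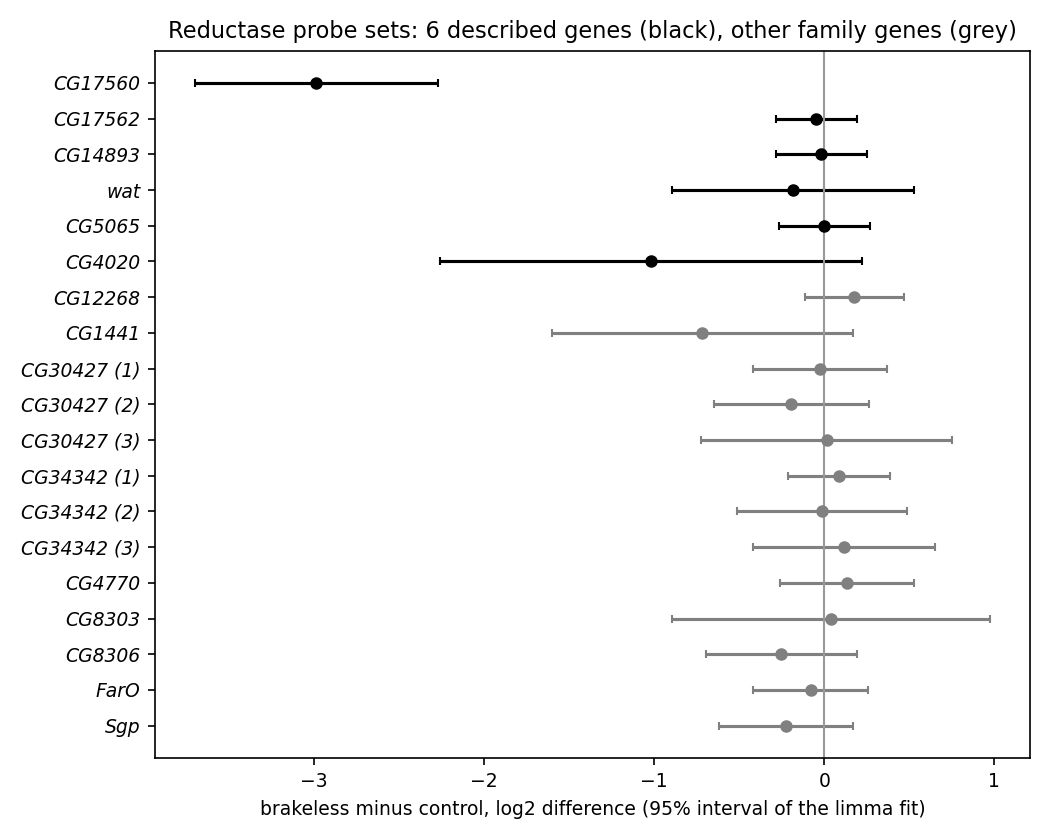
Brakeless minus control log2 difference with the 95% interval of the limma fit for all 19 reductase probe sets, the 6 described genes in black and the other family genes in grey, with numbers in brackets for genes with several probe sets. CG17560, chosen for its fall, is shown at -2.99 as a description, and the other 18 probe sets lie between -1.02 and 0.18.

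**Figure D4:**
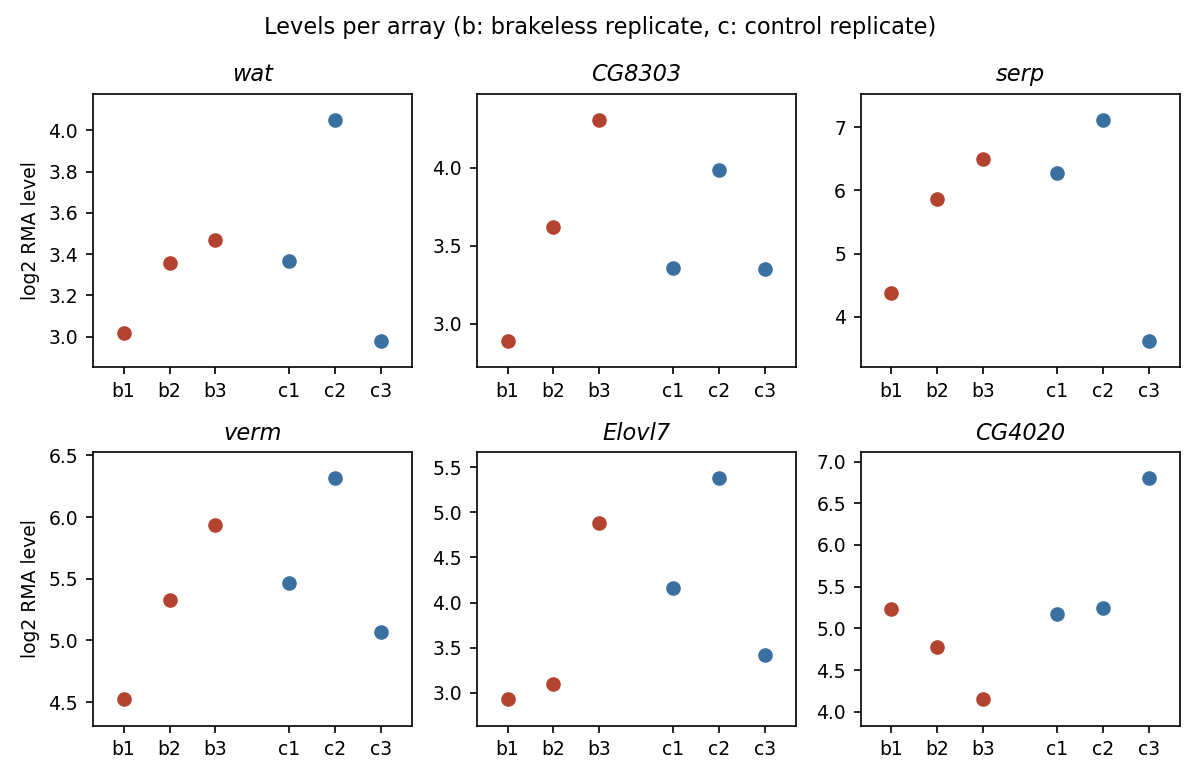
Log2 RMA level in each array (b for brakeless and c for control replicates) of wat, CG8303, the tracheal genes serp and verm, the elongase gene Elovl7 and CG4020, each on its own axis. In the first 5 panels, picked after their values were seen, brakeless replicate 3 and control replicate 2 are the highest of their groups, which does not hold for the brightest probe sets of the tracheal genes btl, osy and pio. In CG4020 the brakeless replicate 3 is the lowest array and control replicate 3 the highest.

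The order of arrays seen for wat was also that of Elovl7, a fatty acid elongase gene picked for the plot after its values were seen. It read 2.93, 3.10 and 4.88 in brakeless and 4.16, 5.38 and 3.42 in control embryos. The groups overlapped, and its difference of -0.68 (interval -2.38 to 1.02) did not pass the test.

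Genes that act before and after the reductases were followed in 5 further lists, which held 52 measured genes. Elongases and fatty acid desaturases set the chain that a reductase receives, and acyl-CoA synthetases activate it. The last list holds enzymes that use fatty alcohols, aldehydes or acyl-CoA. Over the 52 genes 0 rose and 0 fell, beside 0.139% of all probe sets called. Of the 52, 4 (7.69%) had an unadjusted limma p under 0.05, and 7 (13.5%) had groups that did not overlap. Over all probe sets these shares were 4.78% and 10.1%. Of the 52 differences 31 were negative and 21 positive.

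Among 18 elongase genes the median difference was -0.10. CG31141 had the smallest unadjusted p (0.0191), at 3.31, 3.26 and 3.67 in brakeless and 3.81, 3.83 and 4.02 in control embryos, a difference of -0.47 (limma adjusted p = 0.799). CG33110 and CG5326 followed, with differences of -0.40 (interval -0.85 to 0.04) and -1.10 (interval -2.35 to 0.15). The value of CG5326 is that of its brightest probe set, and its other probe sets differed by 0.02 and -0.05. Among 8 desaturase genes the median difference was -0.21. CG9747 read 3.46, 3.58 and 4.50 in brakeless and 4.83, 4.998 and 4.52 in control embryos, so that its groups did not overlap, by a narrow margin, and its difference was -0.94 (limma adjusted p = 0.816). CG9743 and CG8630 had differences of -0.72 and -0.90 with overlapping arrays. Desat1, the main desaturase of fly tissues, was bright, with a mean of 10.1 ± 0.56 over the brakeless and 10.4 ± 0.28 over the control arrays (SD, n = 3 each), and did not pass the test.

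The 9 genes of fatty acid synthesis and of the other elongation steps had a median difference of -0.16, and the smallest unadjusted p among them was 0.157, for ATPCL at 0.27. The fatty acid synthase genes FASN3 and FASN2 came next, at -0.35 (interval -0.88 to 0.18) and -0.23 (interval -0.59 to 0.13). The elongation reductases spidey and Sc2 were bright, with differences of -0.16 (interval -0.50 to 0.18) and 0.07 (interval -0.23 to 0.36). The 9 acyl-CoA synthetase and transport genes had a median of 0.14. The synthetase genes hll and bgm, known to act on very long chains, had values of opposite sign. On hll the brakeless arrays read 7.03, 7.33 and 7.90 and the control arrays 8.65, 7.91 and 8.81, apart by a narrow margin, a difference of -1.04 (interval -1.81 to -0.26, limma adjusted p = 0.768). On bgm the difference was 0.46 (interval -0.60 to 1.51) and the arrays overlapped. CG5568 and Acsl differed by 0.29 and 0.53, also with overlapping arrays. In the last list the median of 8 genes was -0.05, and mdy, which encodes the enzyme for the last step of triglyceride synthesis, had the smallest unadjusted p of all 52 (0.00683). It read 9.07, 9.15 and 9.05 in brakeless and 8.50, 8.69 and 8.13 in control embryos, a difference of 0.65 (limma adjusted p = 0.532). Dgat2, which acts at the same step, differed by -0.26 and CG1941 by 0.16, with overlapping arrays. Cyp4g1, the cytochrome P450 of hydrocarbon synthesis in oenocytes, differed by -0.25 with overlapping arrays.

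**Figure D5:**
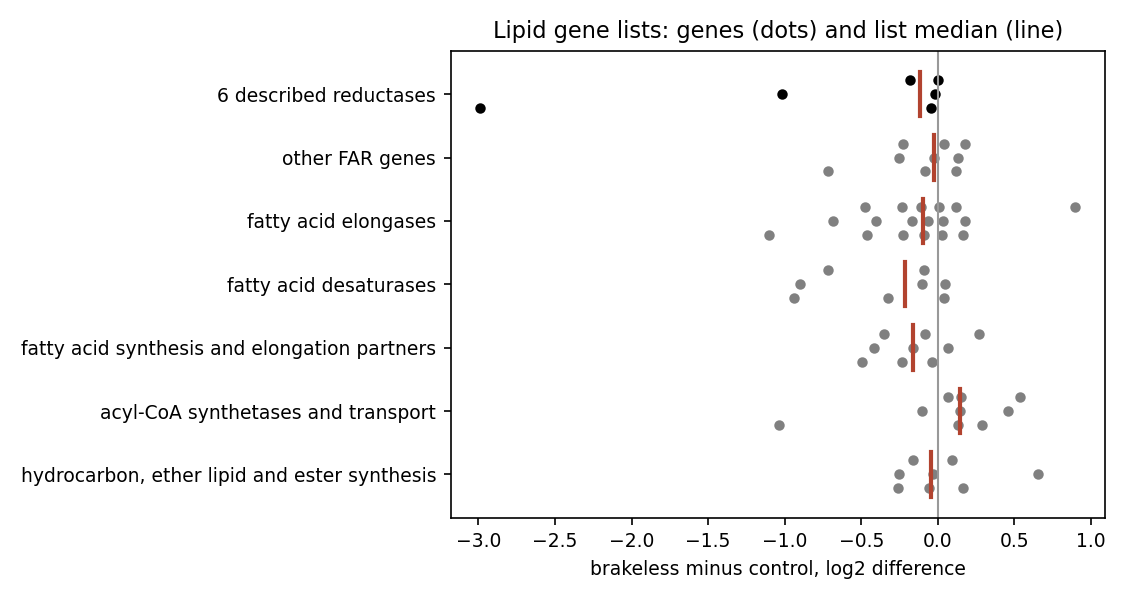
Brakeless minus control log2 difference for the 6 described reductases, the other 9 genes of the family and the 5 further lipid lists, with a dot per gene (the probe set with the highest mean level for the genes of the lists) and a line at the list median. CG17560 at -2.99 lies outside the range of all other genes shown, and the list medians run from -0.21 to 0.14.

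The genes whose pattern over the 6 arrays was most like that of CG17560, by Pearson's r, were lectin-24Db (0.997), KFase (0.993), CG10089 (0.993), CG1894 (0.988) and CG5001 (0.988). These values come from 6 arrays in 2 groups that differ for CG17560, so a high r mainly says that the groups lie apart. The sizes differed widely. CG10089 read 2.72, 2.91 and 2.42 in brakeless and 4.49, 5.11 and 4.68 in control embryos, a difference of -2.08. CG1894 had a difference of -1.76 and CG5001 one of -2.10. KFase had -0.51, and lectin-24Db, at the head of the list, had only -0.12. Within the reductases the closest to CG17560 was CG4020 (r = 0.64), and CG17562 and CG14893 had 0.37 and 0.10.

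Over the marker list of the testis the differences pointed both ways. Of 8 measured genes 4 were positive and 4 negative, with a median of -0.00090. The 4 positive genes, can, comr, dj and Mst87F, had mean levels of only 2.43 to 2.77, near the lower end of the scale. A fall from such a level could not have been seen, so their signs say little. The list mean was nevertheless apart between the groups, at 4.02 to 4.12 per brakeless array and 4.18 to 4.36 per control array, through aly (-1.38) and mia (-0.49). None of the 8 was called by limma. These 2 genes had an unadjusted p under 0.05 and brakeless arrays all below the control arrays, beside 4.78% and 5.40% of all probe sets. The gene can had groups apart in the other direction, at 2.51, 2.69 and 2.49 in brakeless and 2.44, 2.44 and 2.47 in control embryos, and comr had a positive difference of 0.23 with overlapping arrays. On aly the arrays read 2.84, 2.96 and 2.88 in brakeless and 3.70, 5.06 and 4.04 in control embryos (limma adjusted p = 0.545). On mia they read 6.09, 5.83 and 5.86 in brakeless and 6.32, 6.47 and 6.46 in control embryos (limma adjusted p = 0.482). The late spermatid genes dj and Mst87F stayed under 3 on every array, and bam, which also acts in the female germ line, differed by -0.02. In 2 further marker lists every measured gene pointed the same way, though the arrays overlapped. None of these genes was called by limma and 0 had an unadjusted p under 0.05. All 4 measured muscle genes of older embryos, of 8 listed, had negative differences (median -0.73). Their list means were 3.40 to 5.23 per brakeless array and 4.15 to 6.005 per control array. All 4 measured genes of pole cells and germ plasm, of 6 listed, had positive differences (median 0.43). Their list means were 8.68 to 9.41 per brakeless array and 7.78 to 9.03 per control array. The lowest of these means was that of control replicate 3, against 8.66 and 9.03 in control replicates 1 and 2. There tud read 4.48, against 7.16 and 7.56 in control replicates 1 and 2. The part of these lists in the values of CG17560 was not tested.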

How the data were processed

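The deposited table holds log2 levels per probe set. Per the submitters' processing notes the authors made them with RMA, whose settings and version are not stated there, and the log2 scale was read from the values. Of 18952 probe sets 183 Affymetrix controls were left out, which left 18769. The platform annotation gave 1 symbol to 13647, several to 402 and none to 4720. Gene numbers matched 13544 to RefSeq genes of Release 6 plus ISO1 MT, which supplied positions. Where a list gene had several probe sets, counts used the one with the highest mean.

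Groups and replicate numbers came from the sample titles. The test was limma's (version 3.58.1, R 4.3.3), with lmFit and eBayes on all 6 arrays, no covariate, two-sided, p-values adjusted by Benjamini and Hochberg across the 18769 probe sets and called under 0.05. Arrays have no read depth, and their number limits the precision. P-values measure the spread between these pools. Simulated data with known changes were used to check the fit. Figures were drawn with matplotlib 3.10.9.

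The genes and lists were chosen with earlier results of these data known. By the naming rule the text gives every probe set of the 6 genes, the family list, up to 3 genes per further list by smallest unadjusted p, the 5 most similar patterns and 2 measured neighbours on each side, summarised beyond a few. Genes of the lists or markers given beside these were picked after their values were seen. The alternatives were a trended and robust variance prior, array weights, a repeated quantile normalization, median centring, a block for the replicate number, a filter at the 40th percentile of mean signal, and each array left out.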

Additional observations from a re-analysis of the deposited data

How the results depend on the processing

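Of all 18769 probe sets limma called 26 between the groups. The count was 46 with a trended and robust prior and 74 with array weights. Leaving out 1 array gave 0 to 33 calls: 0 for brakeless replicate 1 (662 at an unadjusted p under 0.05), brakeless replicate 2 (532) and control replicate 2 (1427), 6 for brakeless replicate 3, 8 for control replicate 1 and 33 for control replicate 3. With the replicate number as a block it was 0 (678 at an unadjusted p under 0.05). The deviations of same-numbered arrays from their group means correlated at -0.40, -0.23 and -0.32. They gave no sign of a shared shift, but with 3 arrays per group they cannot exclude that the numbers pair the arrays. The difference of CG17560 kept its sign in all 12 alternatives, from -3.25 to -2.68, a direction for which the gene was chosen. CG17562 and CG4020 kept their sign as well. Small differences turned sign. CG14893 read 0.027 with array weights, 0.0085 after centring, and -0.059 to 0.0485 when 1 array was left out. CG5065 read 0.0497 with array weights, 0.0026 after repeated quantile normalization, 0.025 after centring, and -0.058 to 0.056 when 1 array was left out. The gene wat read -0.43 to 0.11 when 1 array was left out. The cause of these changes was not tested. The filter removed CG17562, CG14893 and CG5065, which then had no value, and signals near the lower end of the scale limit what can be said of those 3 genes.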

Other observations

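Several bright genes of fatty acid metabolism spread widely within the groups. ACC, which encodes acetyl-CoA carboxylase, the enzyme that commits carbon to fatty acid synthesis, read 9.61, 8.65 and 6.58 in brakeless and 7.05, 9.03 and 8.87 in control embryos. Its group means differed by only -0.04, with an interval from -2.23 to 2.15, so these arrays say little about ACC. The elongase gene CG31523 read 8.36, 8.05 and 8.56 in brakeless and 8.33, 8.10 and 5.86 in control embryos. Its low value was in control replicate 3, where Fas1 beside the reductase trio was low and CG4020 was high. These genes were picked after their values were seen.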
